A study of Mus musculus with 6 samples.

Results

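Scx, Mkx, Tnmd, Cnmd, Thbs4 and Kera, genes best known from tendon and from avascular cartilage, were followed in RNA sequencing of mouse articular cartilage. They were found by gene name, and all 6 were among the 33971 genes of the deposited table. The libraries came from wildtype (WT) mice, 3 at 2 months (young cartilage) and 3 at 18 months (aged cartilage), with no treatment named, and the comparison addresses how articular cartilage changes with age. The study's methods describe male mice. Xist, which silences an X chromosome in females, was present at 88239 to 102417 counts in the young libraries and at most 30 in the aged ones, and the Y-linked gene Ddx3y had at most 10 and at least 4333. The young libraries thus go against the stated sex, and sex and age cannot be told apart, for the X-linked gene Tnmd as for every other gene.

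Scx (scleraxis) is a basic helix-loop-helix transcription factor of tendon and ligament progenitors, and Mkx (Mohawk) is a homeobox factor of tendon fibroblasts. Tnmd (tenomodulin) and Cnmd (chondromodulin) are homologous membrane glycoproteins that hold back blood vessel growth. Tnmd marks mature tendon cells, and Cnmd is made by chondrocytes of avascular cartilage. Thbs4 (thrombospondin 4) is a matrix glycoprotein of tendon and muscle, and Kera (keratocan) is a keratan sulfate proteoglycan of the cornea that tendon cells also make.

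The libraries held 48171507 to 59085179 counts, and markers of several cell types moved with age. With edgeR all 16 chondrocyte markers were called lower at 18 months, and their summed level was 41621 to 65985 CPM (counts scaled to the library total) at 2 months and 670.1 to 1607 at 18 months. Sox6 was just past the limit on the log2 fold change (−1.001), and DESeq2 called 15 of the 16. The tissue label was met by these markers mainly in young cartilage. The 14 neutrophil markers summed to 13.0 to 3747 CPM at 2 months and 41959 to 45085 at 18 months. With edgeR 0 of these 14 were called and 3 had an unadjusted p under 0.05, DESeq2 called 11 higher, edgeR called 14 without young replicate 2, and all 14 were higher in every aged library. The 11 erythroid markers in the table summed to 248 to 6669.8 CPM at 2 months and 27266 to 35955 at 18 months. With edgeR 3 of these 11 were called higher, DESeq2 called 9, and edgeR called 11 without young replicate 2 and 0 without any other single library. Of 11 osteoblast and osteocyte markers 4 were called lower (5028 to 7196 and then 1352 to 1528 CPM) and 0 higher, and without young replicate 2 4 were lower and 5 higher. Ibsp and Alpl, both called lower, made up most of the young sum. The 7 markers not called included Bglap, with means of 307 FPKM at 2 months and 308 at 18 months. Of 12 synovial fibroblast markers 4 were called lower and 2 higher (12952 to 32793 and 1609.9 to 7157 CPM), and without young replicate 2 3 were lower and 5 higher. Prg4, which is also a cartilage gene, made up most of this sum in every library. Of the 12 markers 6 were lower and 3 higher in every aged library. Of 11 tested skeletal muscle markers 7 were called lower (91.0 to 177 and 8.31 to 9.87 CPM), and Myh1, Myh4 and Pvalb had no count in any aged library. Tnni2 gave the largest part of the muscle sum in each young library. Young replicate 2 held the most neutrophil and erythroid counts of its age. Aged replicate 1 held the most chondrocyte and synovial marker counts of its age, the latter mostly Prg4. The part of these cells in the results was not tested, and in bulk tissue fewer cells of a type and less RNA per cell cannot be told apart.

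The stretches upstream of Cnmd, Thbs4 and Tnmd are shown because the first pair fell from high levels while Tnmd, the homologue of Cnmd, was not called. RefSeq promoters on GRCm38.p6 were found for 4 of the 6 genes, and the one of Kera lies within the gene as deposited and is not shown. Each is given 5′ to 3′ on the strand of its gene. Capitals mark E-box letters, CANNTG, the kind of site that basic helix-loop-helix factors such as Scx bind. The stretch of Cnmd is chr14:79662212-79662433 (minus strand), that of Thbs4 is chr13:92794847-92795068 (minus strand) and that of Tnmd is chrX:133850758-133850979 (plus strand).
Cnmd: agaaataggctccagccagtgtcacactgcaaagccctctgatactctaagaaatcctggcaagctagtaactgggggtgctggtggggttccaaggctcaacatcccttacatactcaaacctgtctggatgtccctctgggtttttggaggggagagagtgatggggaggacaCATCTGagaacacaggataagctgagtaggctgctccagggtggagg
Thbs4: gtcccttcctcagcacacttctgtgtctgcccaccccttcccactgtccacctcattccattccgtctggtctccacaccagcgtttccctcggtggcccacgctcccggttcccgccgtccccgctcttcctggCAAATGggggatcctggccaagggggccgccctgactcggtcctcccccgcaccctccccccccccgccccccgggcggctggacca
Tnmd: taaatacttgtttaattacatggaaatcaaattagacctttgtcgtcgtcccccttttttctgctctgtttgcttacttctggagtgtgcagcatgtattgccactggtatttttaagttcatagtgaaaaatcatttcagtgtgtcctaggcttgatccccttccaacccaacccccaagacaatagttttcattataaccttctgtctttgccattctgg
Searched on both strands, Cnmd and Thbs4 held 1 E-box each and Tnmd held 0, and 62.4% of 32851 promoter stretches of the same 222 bases held at least 1. The SOX motif AACAAT was in 0 of the 3 and in 8.71% of all stretches. The letters TATAAA were in 0 of the 3 and in 10.1% of all. The stretches end short of the RefSeq start, so the bases nearest it were not searched and a TATA box there would be missed. Such matches describe letters only, and no binding was measured.

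In young cartilage the 6 genes spanned a wide range of levels in FPKM, a unit scaled by transcript length and library. Cnmd led with 345 ± 79.1 FPKM (SD, n = 3), followed by Thbs4 with 263 ± 124, Mkx with 5.17 ± 1.897, Scx with 0.849 ± 0.272, Tnmd with 0.209 ± 0.285 and Kera with 0.0914 ± 0.0588. The libraries of Cnmd and Thbs4 overlapped, and so did those of Tnmd and Kera, so the order within these pairs did not exceed the spread. In aged cartilage Thbs4 led with 17.9 ± 19.9 FPKM (SD, n = 3), ahead of Cnmd with 0.448 ± 0.637, Mkx with 0.401 ± 0.0884, Tnmd with 0.358 ± 0.219 and Scx with 0.268 ± 0.0665. Kera was listed at 0 in all 3 aged libraries. From Cnmd to Scx, neighbours in the aged order overlapped. Aged replicate 1 held the highest FPKM of its age for all 5 detected genes.

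**Figure D1:**
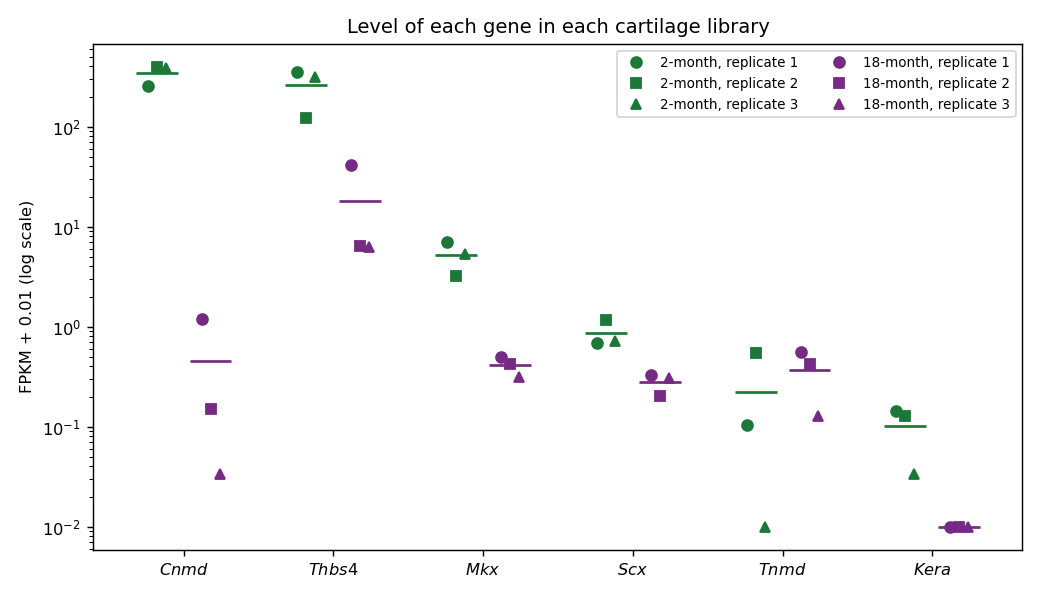
FPKM of the 6 genes in each library (log axis, 0.01 added), with a colour for each age, a symbol for each replicate and a line at the mean of the 3 libraries. Cnmd, Thbs4, Mkx and Scx show no overlap between the ages and lie lower at 18 months, and the libraries of Tnmd overlap.

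Aged was compared with young cartilage by edgeR's quasi-likelihood test. Calls required an adjusted p under 0.05 over all tested genes together with a log2 fold change beyond 1 in either direction. Of the 6 genes 5 passed the filter on low counts, and Kera did not. Cnmd, Thbs4, Mkx and Scx were called lower, Tnmd was not called and 0 were called higher. Among all 20397 tested genes 21.3% were called lower, 14.9% higher and 36.3% in either direction. The median log2 fold change was −3.77 over the 5 genes and −0.02 over all tested genes. The ages did not overlap for the 4 called genes, and of all tested genes 34.6% were lower and 33.9% higher in every aged library. For a higher level, 0 of the 5 had an unadjusted p under 0.05, and DESeq2 and limma called 0 higher as well. The same 4 genes were called without young replicate 2 and aged replicate 1 together.

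**Figure D2:**
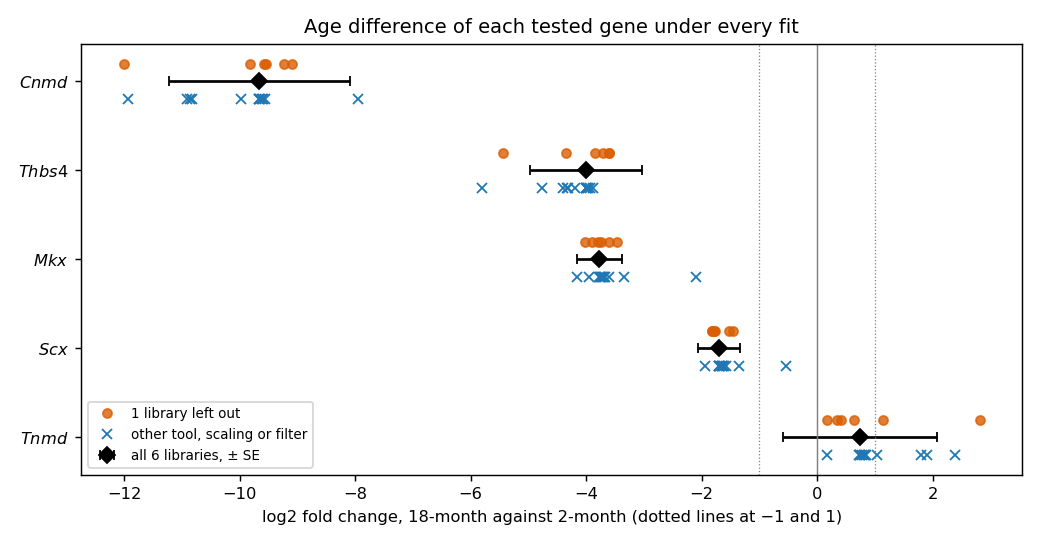
Log2 fold change of 18-month against 2-month cartilage (x axis) of the 5 tested genes, with the fit on all 6 libraries ± SE, fits without 1 library and fits with other settings. Cnmd, Thbs4 and Mkx lie below −1 in every fit, Scx reaches −0.54 in 1 limma fit, and Tnmd ranges from 0.17 to 2.82 without 1 library.

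Cnmd showed the largest difference of the group. Cnmd (ENSMUSG00000022025) spans bases 79637690 to 79662170 of chromosome 14, minus strand, and has 5 annotated transcripts. Its young libraries held 25738, 42576 and 40070 counts (replicates 1 to 3) and its aged libraries 148, 17 and 3. In FPKM these were 254, 395 and 387, and 1.18, 0.141 and 0.0234. Every young library lay far above every aged one, and the aged libraries differed widely among themselves. Cnmd fell by 9.66 on the log2 scale (SE 1.57, 95% interval −13.53 to −5.79, edgeR adjusted p = 0.00493). Aged replicate 1, which also held the most chondrocyte marker counts of its age, gave 88.1% of the aged counts, and without it the value was −12.00. The 3 counts of aged replicate 3 have an exact Poisson interval of 0.619 to 8.77.

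Tnmd was barely detected at either age. Tnmd (ENSMUSG00000031250) spans bases 133850980 to 133865577 of chromosome X, plus strand, and has 1 annotated transcript. Its counts were 7, 43 and 0 in young and 50, 35 and 11 in aged libraries, or 0.0938, 0.534 and 0 (young) and 0.546, 0.410 and 0.118 (aged) FPKM. Young replicate 2 lay within the aged range and the other young libraries lay below it, so the ages overlapped. The log2 fold change was 0.74 (SE 1.33, 95% interval −2.53 to 4.01, edgeR adjusted p = 0.665), an interval that holds differences in either direction. Young replicate 2 gave 86.0% of the young counts, and without it the value was 2.82 (edgeR adjusted p = 0.119, the lowest of the 6 fits that leave out 1 library, the highest being 0.906). The young library with 0 counts has an exact Poisson interval that reaches 3.69 counts, or 0.0766 CPM.

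The level of Cnmd relative to Tnmd was taken within each library as a log2 ratio of FPKM + 0.1. It was 10.36, 9.28 and 11.92 in young and 0.99, −1.08 and −0.82 in aged libraries. Cnmd lay above its homologue in every young library, and it was the higher of them in aged replicate 1 and the lower in aged replicates 2 and 3. The order in those last libraries rests on 17 and 3 counts of Cnmd against 35 and 11 of Tnmd. The exact Poisson intervals of these counts overlap in each library, so the order there lies within counting error. The mean ratios of the ages differed by −10.83 (two-sided exact permutation test, p = 0.1, n = 3 and 3, adjusted p = 0.144 over 13 ratios), and 0.1 is the smallest p that 3 against 3 can give. The added value sets part of this difference, which was −8.14 with 1 added and −12.77 with 0.01 added.

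Cnmd and Tnmd carry a BRICHOS domain, a fold found in membrane proteins with a cleaved end. Of 8 other genes with this domain 7 were in the table and 3 were tested, with 2 called lower and 0 higher. Itm2a, a gene of differentiating chondrocytes, had 269, 226 and 226 FPKM in young and 9.14, 4.27 and 4.28 in aged libraries (log2 fold change −5.44, SE 0.39). Itm2c went from 159 to 44.6 mean FPKM (log2 fold change −1.92, SE 0.18). Itm2b, a broadly expressed gene, had means of 225 and 352 FPKM and was under the fold change limit (log2 fold change 0.57, SE 0.14), although every aged library was higher. The median log2 fold change of the 3 was −1.92.

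Thbs4 was the other gene at a high level in young cartilage. Thbs4 (ENSMUSG00000021702) spans bases 92751590 to 92794818 of chromosome 13, minus strand, and has 2 annotated transcripts. Its counts were 64204, 23583 and 57444 in young and 9044, 1333 and 1322 in aged libraries, or 355, 123 and 311 (young) and 40.9, 6.44 and 6.30 (aged) FPKM. Young replicate 2 was the lowest and aged replicate 1 the highest of its age, and the ages did not overlap. Thbs4 fell by 4.01 on the log2 scale (SE 0.97, edgeR adjusted p = 0.0180). Aged replicate 1 gave 77.3% of the aged counts, and the value was −5.45 without it. The call was lost without young replicate 3 (−3.85, edgeR adjusted p = 0.0501), without aged replicate 2 (−3.60, adjusted p = 0.0551) and without aged replicate 3 (−3.60, adjusted p = 0.0544).

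Of 4 other thrombospondin genes all 4 were called lower, with a median log2 fold change of −3.93. Comp, the cartilage oligomeric matrix protein, had 1160.1, 1232 and 1177 FPKM in young and 50.0, 10.2 and 11.0 in aged libraries (log2 fold change −5.74, SE 0.80). Thbs3 had 14.8, 57.0 and 30.4 (young) and 1.15, 0.433 and 0.474 (aged) (log2 fold change −5.67, SE 0.69). Thbs1, an activator of latent TGF-β, had 295, 278 and 352 (young) and 67.7, 74.6 and 74.0 (aged) (log2 fold change −2.18, SE 0.20) and was the highest of these 4 in aged cartilage.

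Mkx had a moderate level in young cartilage and was lower in every aged library. Mkx (ENSMUSG00000061013) spans bases 6934518 to 7004780 of chromosome 18, minus strand, and has 4 annotated transcripts. Its counts were 1581, 775 and 1214 in young and 134, 108 and 81 in aged libraries, or 7.02, 3.23 and 5.27 (young) and 0.482, 0.414 and 0.307 (aged) FPKM. As for Thbs4, young replicate 2 was the lowest young library and aged replicate 1 the highest aged one. Mkx fell by 3.77 on the log2 scale (SE 0.39, edgeR adjusted p = 0.00165), and its log2 fold change was −4.02 to −3.47 without 1 library. A transcript annotated on the same strand that overlaps Mkx had at most 10 counts in a library.

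Mkx belongs to the TALE homeobox genes, of which 17 others were listed and tested. Of these 6 were called lower and 1 higher, with a median log2 fold change of −0.72. The 6 were Irx1, Irx3, Irx4, Irx5, Meis2 and Pknox2. Irx5, of the Iroquois group, had 19.1, 16.4 and 16.3 FPKM in young and 2.36, 1.55 and 1.64 in aged libraries (log2 fold change −3.31, SE 0.20). Irx1 had 959, 233 and 861 (young) and 13, 8 and 4 (aged) counts (log2 fold change −6.67, SE 0.83). Irx4 had 40, 25 and 33 (young) and 7, 0 and 0 (aged) counts (log2 fold change −4.07, SE 1.27). Pbx2, a cofactor of Hox proteins, had means of 12.9 and 23.8 FPKM and was under the fold change limit (log2 fold change 0.81, SE 0.09). The gene called higher, Pbx4, had 30, 27 and 8 (young) and 107, 135 and 109 (aged) counts (log2 fold change 2.17, SE 0.54). Irx3, Meis2, Pknox2 and Pbx4 were named after their values were seen, and Pbx4 was not called without aged replicate 2 or 3.

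Scx was low at both ages. Scx (ENSMUSG00000034161) spans bases 76457452 to 76459458 of chromosome 15, plus strand, and has 2 annotated transcripts. It lies within the span of Bop1, a gene of ribosome assembly on the opposite strand, with no Bop1 exon inside it, and whether the counting used strand is not given in the sources used here. Bop1 had 598, 937 and 574 counts in young and 2298, 1691 and 1602 in aged libraries, the opposite direction to Scx. Scx had 75, 137 and 81 (young) and 44, 25 and 38 (aged) counts, or 0.674, 1.16 and 0.712 (young) and 0.316, 0.192 and 0.296 (aged) FPKM. The ages did not overlap, and young replicate 2, the lowest young library for Mkx and Thbs4, was the highest for Scx. Scx fell by 1.71 on the log2 scale (SE 0.36, edgeR adjusted p = 0.0114). It was not called in a test against a fold change of 2 (adjusted p = 0.0755, edgeR's glmTreat) or with limma on log2(FPKM + 1), where its log2 fold change of −0.54 was under the limit.

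Of 11 other basic helix-loop-helix genes of the mesoderm 7 were tested, 4 were called lower and 0 higher, and the median log2 fold change was −1.34. In the fit without young replicate 2, 4 were called lower and 1 higher. Twist1, a factor of mesenchymal cells, had 6.81, 9.38 and 7.46 FPKM in young and 3.58, 3.72 and 2.55 in aged libraries (log2 fold change −1.34, SE 0.21). Hand2, a factor of limb patterning, went from 2.11 to 0.495 mean FPKM (log2 fold change −2.18, SE 0.38). Hand1 had 11, 14 and 23 counts in young libraries and 0 in each aged one, and no fitted fold is given for it. Tcf3, a common partner of such factors, had 9.89, 18.2 and 9.13 (young) and 19.5, 19.8 and 20.5 (aged) FPKM and was not called (log2 fold change 0.62, SE 0.24).

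Growth factors and transcription factors that act in tendon formation were listed as 16 regulators. Of these 15 were in the table and 14 tested, with 8 called lower, 0 higher and a median log2 fold change of −1.66. In every aged library 10 of the 14 were lower and 2 higher, against 34.6% and 33.9% of all tested genes. The 2 were Eya1 (log2 fold change 1.97, SE 1.31) and Eya2 (0.72, SE 0.29), neither called and both named after their values were seen. Tgfb3, a TGF-β ligand of tendon and joint development, had 39.2, 28.3 and 36.9 FPKM in young and 3.29, 1.82 and 1.898 in aged libraries (log2 fold change −3.99, SE 0.31). The receptor gene Tgfbr2 had 19.1, 28.6 and 20.6 (young) and 12.4, 11.9 and 10.9 (aged), a change just past the limit (log2 fold change −1.03, SE 0.15). Gdf6, a growth factor of the BMP family in joints, had 2.60, 1.65 and 0.440 (young) and 0.173, 0.0486 and 0.0542 (aged) (log2 fold change −4.12, SE 0.87).

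Kera was at the edge of detection. Kera (ENSMUSG00000019932) spans bases 97606879 to 97613692 of chromosome 10, plus strand, and has 1 annotated transcript. It had 17, 16 and 4 counts in the young libraries and 0 in each aged one, or 0.132, 0.118 and 0.0240 FPKM in the young libraries. With 3 counts per library as the floor in aged cartilage, Kera was 4.68-fold lower there by mean CPM. That value is no strict bound, as it leaves out the error of the young counts and the exact Poisson interval for 0 counts reaches 3.69. Young replicate 3, with 4 counts and an exact Poisson interval of 1.09 to 10.2, was close to that floor. With no filter on low counts Kera was called lower (edgeR adjusted p = 0.0346).

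Kera belongs to the class II small leucine-rich proteoglycans, which bind collagen fibrils. The other 4, Lum, Fmod, Prelp and Omd, were abundant in young cartilage, and all 4 were called lower, with a median log2 fold change of −5.48. Omd (osteomodulin) had 493, 272 and 691 FPKM in young and 12.4, 5.60 and 5.93 in aged libraries (log2 fold change −6.03, SE 0.59). Fmod (fibromodulin) had 285, 402 and 355 (young) and 9.02, 3.42 and 3.81 (aged) (log2 fold change −6.09, SE 0.49).

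Of 29 genes of tendon matrix and tendon cells 28 were tested, with 24 called lower, 0 higher and a median log2 fold change of −3.22. Several of these, such as Comp and Prg4, are also cartilage genes. Prg4 (lubricin), the joint lubricant, had 6097, 2575 and 6475 FPKM in young and 1389, 272 and 266 in aged libraries (log2 fold change −3.10, SE 0.90). Angptl7, a secreted angiopoietin-like protein, had 66.3, 43.6 and 113 (young) and 0.630, 0.479 and 0.200 (aged) (log2 fold change −7.50, SE 0.68). Pcolce2, an enhancer of procollagen trimming, had 74.2, 75.4 and 78.1 (young) and 1.27, 0.251 and 0.310 (aged) (log2 fold change −7.06, SE 0.80). Col1a1, the main collagen gene of tendon and bone, had 29.3, 1420.3 and 60.0 (young) and 285, 279 and 286 (aged) FPKM and was not called (log2 fold change −0.82, SE 1.36), with young replicate 2 far above all other libraries. Without that library Col1a1, Col1a2 and Tnc were called higher, with log2 fold changes of 2.56, 2.66 and 3.21. Col1a2 and Tnc were named after their values were seen.

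**Figure D3:**
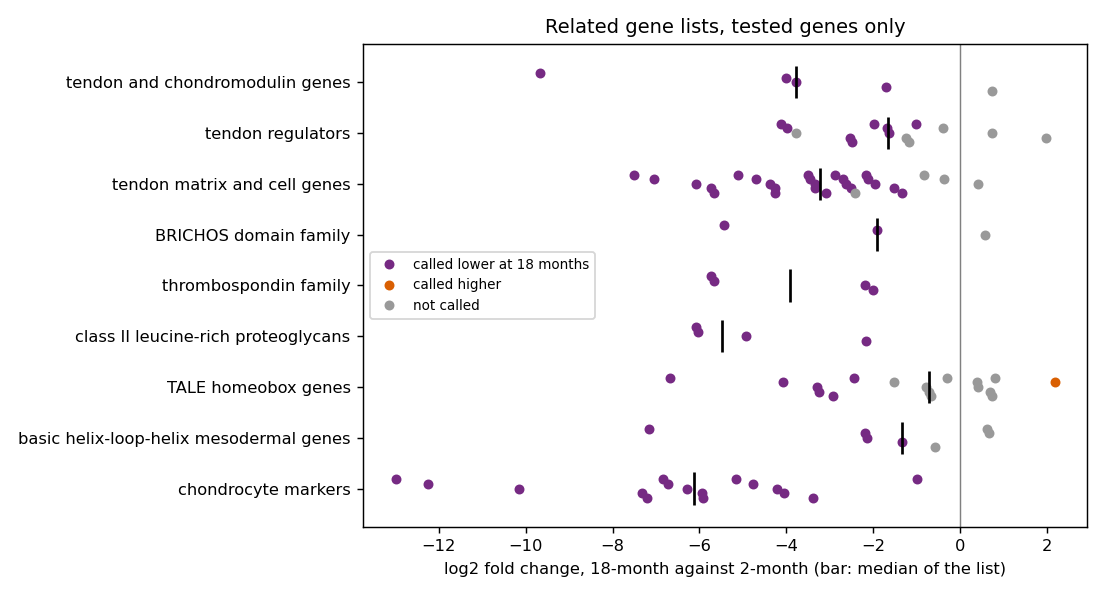
Log2 fold change of 18-month against 2-month cartilage (x axis) of the tested genes of each list (rows), coloured by call, with a bar at the median. Of the 74 tested genes related to the 6, 49 are called lower and 1, among the TALE homeobox genes, higher.

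The 5 genes detected at both ages were also set against Col2a1, the type II collagen gene of chondrocytes, and against Col1a1 within each library, as log2 ratios of FPKM + 0.1. Kera had no count in aged cartilage, so its aged ratios would only restate the added 0.1 and are not given. Col2a1 fell by 7.20 on the log2 scale. The ratio of Cnmd to Col2a1 was −2.47, −3.09 and −2.25 in young and −4.06, −5.74 and −6.72 in aged libraries, a difference of −2.90 that was −0.97 with 1 added and −3.78 with 0.01 added. Of the 5 genes, Cnmd had a lower ratio to Col2a1 in aged cartilage and the others a higher one. The ratio of Thbs4 went from −3.11 ± 1.47 to −0.35 ± 1.12 (SD, n = 3), a difference of 2.76. For Mkx it went from −8.68 ± 1.19 to −4.95 ± 0.28, a difference of 3.73. For Scx it went from −11.12 ± 0.27 to −5.39 ± 0.33, a difference of 5.73. The ages did not overlap in these 4 ratios (two-sided exact permutation test, p = 0.1 each, adjusted p = 0.144). The ratio of Tnmd differed by 7.92, also without overlap (exact permutation test, p = 0.1), and for a gene so close to 0 the added 0.1 sets part of the value.

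Against Col1a1 the young libraries spread widely, with Col1a1 high in young replicate 2. The ratio of Cnmd was 3.11, −1.85 and 2.69 in young and −7.80, −10.18 and −11.18 in aged libraries, a difference of −11.04 without overlap (two-sided exact permutation test, p = 0.1). The ratio of Mkx differed by −4.40, also without overlap (exact permutation test, p = 0.1), but with 1 added it was −3.14 and the separation was lost (exact permutation test, p = 0.4). The ratios of Thbs4 and Scx differed by −5.38 and −2.41 and overlapped between the ages (exact permutation test, p = 0.2 and p = 0.4). That of Tnmd differed by −0.21 and overlapped as well (exact permutation test, p = 1.0). These differences moved with the young library left out: without young replicate 2 they were −12.62 for Cnmd, −6.40 for Mkx, −7.55 for Thbs4 and −3.88 for Scx, and without young replicate 1 they were −10.14, −3.05, −3.98 and −1.43.

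**Figure D4:**
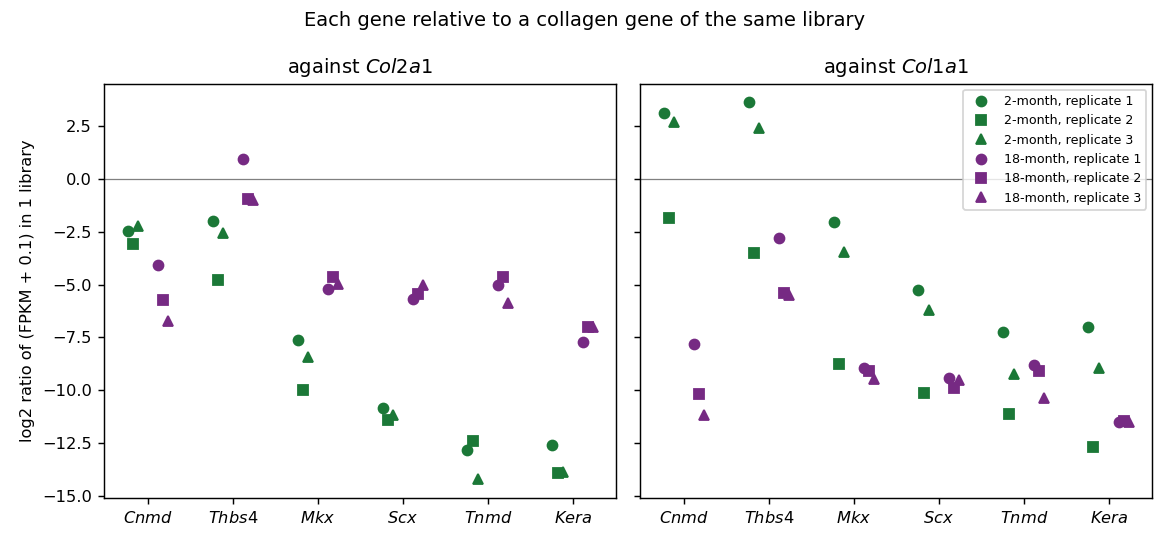
Log2 ratio of FPKM + 0.1 of each gene to Col2a1 and to Col1a1 in each library, with a colour for each age and a symbol for each replicate. The aged points of Kera show the added 0.1 alone. Cnmd is lower in aged cartilage against both collagen genes, while Thbs4, Mkx and Scx are higher against Col2a1.

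Profiles over the 6 libraries were compared by the root mean square difference of centred log2(CPM + 1) values, among 13900 tested genes that averaged 1 FPKM or more. All profiles share the same libraries with their depth and makeup. Nearest to Thbs4 were Smoc2 at 0.09, Ndufa4l2 at 0.11 and Htra4 at 0.24. Smoc2, a matricellular protein gene, had 383, 129 and 303 FPKM in young and 39.6, 7.21 and 7.47 in aged libraries, with the same low young replicate 2 and high aged replicate 1. Nearest to Mkx were Rhod at 0.10, Zfp185 at 0.13 and Lpin3 at 0.13. Rhod, a small GTPase gene, had 38.0, 19.1 and 31.8 (young) and 3.17, 2.48 and 2.43 (aged) FPKM. The nearest genes to Cnmd were less close, with the type IX collagen genes Col9a2 at 0.65 and Col9a1 at 0.77 and the retinol carrier gene Rbp4 at 0.79. Col9a2 had 326, 548 and 471 (young) and 7.30, 0.910 and 0.784 (aged) FPKM. The added 1 flattens the low profiles of Scx, Tnmd and Kera, whose nearest genes were Abca1, Ttyh2 and Lxn for Scx, Ppm1j, Lrrc75a and Fmnl3 for Tnmd, and Gm29233, Gm2446 and Lrch1 for Kera.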

How the data were processed

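Articular cartilage libraries at 2 months (n = 3) and 18 months (n = 3) were grouped by their titles, and the study describes its experiments as done on independent samples, without saying which animals gave each library. The p-values measure the spread between libraries. Libraries were poly(A)-selected, strand-specific and paired-end with molecular identifiers. The authors deposited raw counts and FPKM values for each library. The submitters' processing notes name cutadapt 1.9, HISAT2 2.0.4, UMI-tools, StringTie 1.3.4d, DESeq2 and edgeR, and the build and annotation are not given in the sources used here. The coordinates of all 6 genes equal those of GENCODE M21 (GRCm38).

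Counts were fitted with edgeR 4.0.16 in R 4.3.3 (TMM, filterByExpr, quasi-likelihood test, age as the only term, Benjamini-Hochberg adjustment). The call limits are those of the study. SEs were derived from the log2 fold change and its F statistic. Alternatives were limma 3.58.1 on log2 FPKM or TPM, DESeq2 1.42.0, other scalings, no filter, glmTreat, a replicate block and leaving out libraries. Leaving out young replicate 2 and aged replicate 1 together was added after seeing the data. Ratios were tested with scipy 1.17.1. The fits were also run on simulated counts. These held no differences in makeup between libraries of one age, so that run cannot speak to them. Exact Poisson intervals (95%) on single counts and floors cover counting error only. The 95% intervals on log2 fold changes come from the quasi-likelihood fit and cover the spread between libraries.

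The 6 genes and all lists were chosen with earlier results of these data known. Named by rule were the 6 genes, in each list the 2 highest by mean FPKM and the 2 called genes with the largest change, the 3 nearest profiles, Col2a1, Col1a1 and sex-linked genes. Marker lists are given as counts and sums, and the other sex-linked genes of the rule showed the pattern of Ddx3y.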

Additional observations from a re-analysis of the deposited data

How the results depend on the processing

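Cnmd and Mkx kept their direction and call in every fit, and Thbs4 in every fit on all 6 libraries. Without 1 library each, Thbs4 ranged from −5.45 to −3.60 and lost its call in 3 of 6 fits. Scx kept its direction and lost its call with limma on log2(FPKM + 1), at −0.54, against a fold change of 2, at −1.71, and with a replicate block, at −1.70 (edgeR adjusted p = 0.0595). Same-numbered libraries did not deviate together (r = 0.0911, 0.0938 and −0.0868 over genes), so the numbers were not taken as pairs. The block changed no other call among the 5 tested genes, and Kera was not tested with it. An added 1 compresses low values by construction. With limma on log2(TPM + 0.1) the median of all genes was −0.33, Scx was −1.94 and 10 TALE homeobox genes were called lower in place of 6. Tnmd was called in no fit. Of the genes listed beside the 6, 1 was called higher with all libraries, 0 with limma on log2(FPKM + 1) or against a fold change of 2, 0 to 5 without 1 library each (5 without young replicate 2, 0 without aged replicate 2 or 3) and 5 without young replicate 2 and aged replicate 1 together. Tendon regulators called lower were 5 with limma on log2(FPKM + 1) and against a fold change of 2, in place of 8. The ratio of Tnmd to Col1a1 (−0.21) was 0.85 with a pseudocount of 0.01, 0.0021 with CPM, and −1.18 to 0.77 without 1 library each. No other ratio changed sign, but sizes moved. Without 1 library each, the ratio to Col2a1 differed by −3.62 to −2.30 for Cnmd and 1.93 to 3.32 for Thbs4, and the ratio to Col1a1 by −3.88 to −1.43 for Scx and −7.55 to −3.98 for Thbs4. Over all genes 3047 were called higher and 4354 lower, against 1366 and 2667 in the test against a fold change of 2 and 3041 and 2217 with limma on log2(FPKM + 1). These were 5007 and 4576 without young replicate 2, and 4931 and 4847 without young replicate 2 and aged replicate 1 together. Where no construction is named, the cause was not tested. Low counts limit Tnmd, Kera and aged Cnmd.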
